A study of Rattus norvegicus with 6 samples.

Results

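The genes of regulated exocytosis were followed through the transcriptome of the adult rat pituitary gland. They were taken by gene symbol as the synaptotagmins (Syt), syntaxins (Stx), syntaxin binding proteins (Stxbp), vesicle-associated membrane proteins (Vamp), Snap23, Snap25, Snap29, Snap47, Snap91, Rab3 and Rab27 GTPases, complexins (Cplx), Unc13 proteins and the proteins Cadps and Cadps2. The rule found 66 genes among the 33294 gene symbols counted. All 66 had at least 1 count in a library, and 61 of them were among the 17292 genes abundant enough to be tested. The compared animals were Sprague-Dawley male rats of 11 weeks, 3 born to dams treated with nicotine tartrate (6 mg/kg/day) during gestation and 3 born to control dams given saline. Both kinds of dam carried an osmotic mini-pump under the skin, so the pump and its surgery were common to both groups, and the offspring themselves carried none. The study's methods rate the pump for longer than the time from implant to birth and mention no removal. Whether delivery to the dam went on after birth is not given. The libraries were made from total RNA, and the study's methods call them biological replicates. Each is taken here as the gland of 1 rat, which neither the methods nor the labels state. The labels do not give the litter of a rat, and with rats from 1 litter the p-values would measure a narrower spread than that between dams.

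Hormone-producing cells of the anterior pituitary store their products in dense-core granules and release them when intracellular calcium rises. Fusion of a granule is driven by SNARE proteins: a vesicle SNARE (a Vamp protein) pairs with a syntaxin and a member of the SNAP-25 family at the plasma membrane. Munc18 proteins hold syntaxins, Rab3 and Rab27 bring vesicles to the membrane, Unc13 and Cadps proteins make them ready to fuse, complexins clamp and promote the assembled SNARE bundle, and synaptotagmins sense calcium. The posterior lobe holds axon endings of hypothalamic neurons that release vasopressin and oxytocin through the same machinery.

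The libraries held between 28318383 and 85977002 counts. By the sample labels, each nicotine library held more counts than the control library of the same number. The study's supplement lists the reverse, with more reads for each control library than for the nicotine library at the same place. The groups are named here as the sample labels name them, and every direction given depends on those labels. Each nicotine library held more counts than the reads that the supplement lists for the nicotine library at its place. It held fewer than those listed for the control library there. The paper's text reports Acta2 as raised by nicotine, and by the labels Acta2 was higher in the nicotine group (log2 fold change 2.08). Which source is right was not tested. Levels are given as CPM, the counts of a gene per 1000000 counts of its library, after scaling of the library sizes by TMM, a factor that lay between 0.957 and 1.07 and makes most genes equal on average. Transcript lengths were not used, so a CPM is compared between libraries for 1 gene and not between genes. The sample labels name the pituitary gland, although the extraction text attached to them speaks of testes. The 8 hormone and endocrine marker genes examined (Gh1, Prl, Pomc, Cga, Tshb, Lhb, Fshb and Pou1f1) were present in every library, with a summed level of 113900 to 176600 CPM in the nicotine group and 146200 to 159800 CPM in the control group. The members together took 0.35% to 0.445% of the counts of a library. In whole tissue, fewer cells of a type and less RNA per cell cannot be told apart.

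The first question was whether any gene of the release machinery differed between the offspring of nicotine-treated dams and those of control dams. None did by the criteria of the comparison. The SNARE genes Snap25, Vamp2 and Stx4 lay at nearly the same level in both groups. Other SNARE genes lay further apart with overlapping groups, such as Snap23 at 0.82-fold and Vamp4 and Snap47 at 0.84-fold in the nicotine group. Syt15, a low-abundance synaptotagmin, had the largest estimated difference and was 1.71-fold higher in the nicotine group, but its adjusted p did not pass. By edgeR's quasi-likelihood test with Benjamini-Hochberg adjustment over all genes tested, 0 of the 61 members passed both thresholds of a call (adjusted p below 0.1, fold change above 1.5), against 0% of all genes tested. At an unadjusted p under 0.05 there was 1 member, or 1.64%, against 5.85% of all genes. DESeq2 also called 0 members, against 0.347% of the 17876 genes to which it gave an adjusted p. The adjusted p of the members in the edgeR test ranged from 0.807 to 1.

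The estimated log2 fold changes, nicotine minus control, ran from -0.47 for Syt4 to 0.78 for Syt15. They were above 0 for 36 members and below 0 for 25. Their median was 0.04, beside 0.01 for all genes tested. When the library of nicotine rat 2 was left out, 27 members were above 0 and 34 below, with a median of -0.01 beside -0.02 for all genes. The balance of signs thus changed with that library, while the median of all genes fell as well. The data bound the differences more tightly than the lack of calls alone shows. The 95% confidence interval of the fold change stayed inside 1.5-fold in either direction for 31 of the 61 members, or 50.8%, against 33.1% of all genes tested. The median standard error of the log2 fold change was 0.19 for the members and 0.22 for all genes. Rats of 1 group also differed somewhat less in these genes: the median within-group standard deviation of log2(CPM + 0.5) was 0.202 for the members and 0.238 for all genes. All genes tested reach down to a mean level of 0.137 CPM and the members to 0.329 CPM. The genes were not matched for level, so these figures do not compare genes of equal level.

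**Figure D1:**
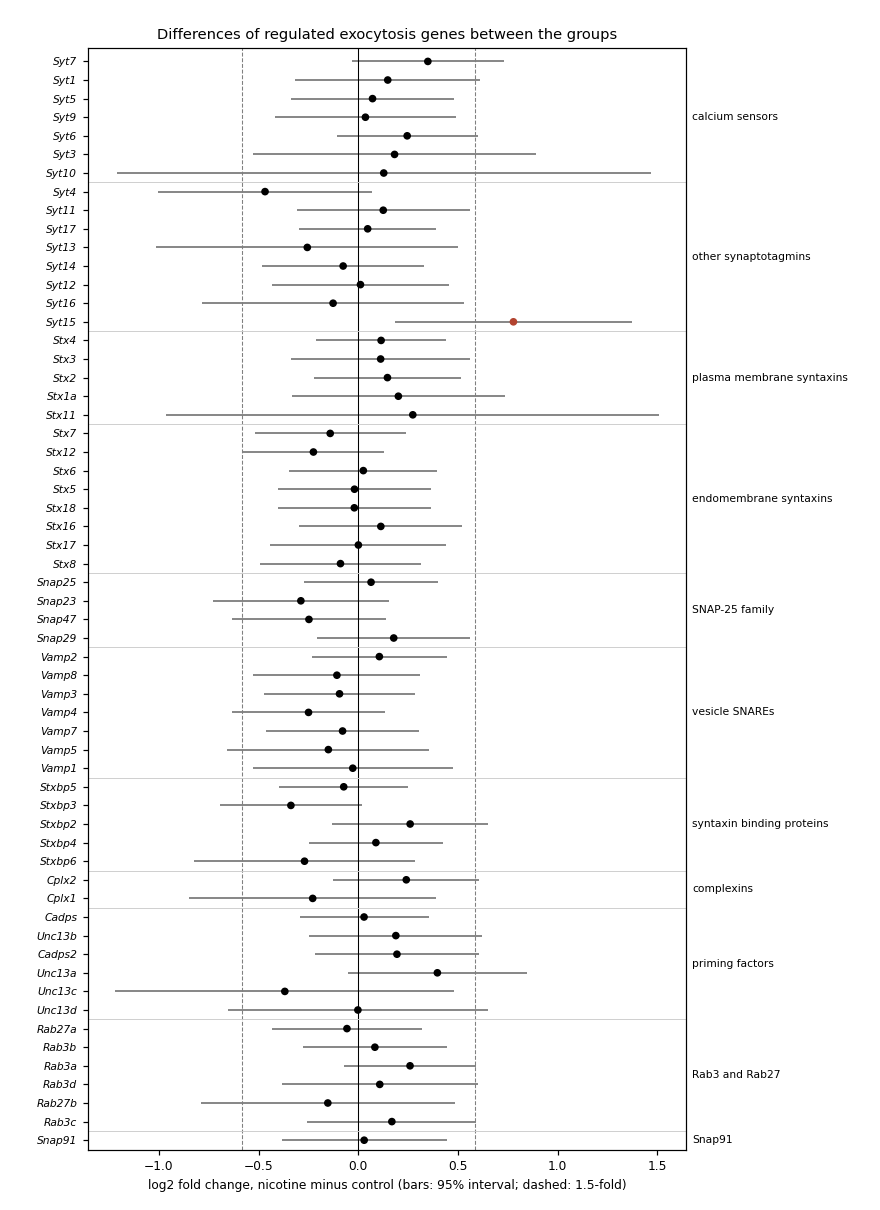
Log2 fold change (nicotine minus control) of 59 of the 61 members tested, with the 95% interval as a bar, grouped by role. Dashed lines mark 1.5-fold, and the red point is Syt15, the 1 member with an unadjusted p under 0.05. Every interval drawn except that of Syt15 crosses 0, and 30 of those drawn stay between the dashed lines.

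Snap25 and Vamp2, core SNAREs of granule fusion, varied least between rats of a group. Snap25, which encodes the neuronal and endocrine SNAP-25 protein that botulinum toxin A cleaves, was at 219.7, 224 and 229.8 CPM in the nicotine rats and at 209, 215 and 220.4 CPM in the control rats. The groups overlapped only by the lowest nicotine and highest control library. A log2 fold change of 0.06 was estimated, with a 95% interval from -0.27 to 0.40. Its within-group standard deviation of log2(CPM + 0.5), 0.0359, was the smallest of all members. Vamp2, the vesicle SNARE of regulated secretion, followed with 0.062. Vamp2 stood at 168, 188 and 179.8 CPM against 162, 168 and 169 CPM, and the log2 fold change was 0.11 with an interval from -0.23 to 0.44. For both genes a change of 1.5-fold lay outside the interval.

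The 6 plasma membrane syntaxins tested are the target SNAREs with which these proteins pair. All 6 had an estimate above 0 (median 0.17) and none was called. Without nicotine rat 2, 4 of the 6 were above 0 and the median was 0.12. Stx4, which serves release at the surface of many cell types, was at 43.5, 45.6 and 48.9 CPM in the nicotine rats and 44.7, 39.9 and 43 CPM in the control rats. The groups overlapped, and the log2 fold change was 0.11 ± 0.15 (SE). Stx3 stood at 13, 21.1 and 16.1 CPM against 16.5, 13.7 and 16.3 CPM, with both the highest and the lowest value in the nicotine group. Stx1a, a neuronal syntaxin and partner of Snap25, was chosen for description after its values were seen. Stx1a was at 10.9, 17 and 12.4 CPM against 10.9, 8.95 and 15.3 CPM. Control rat 3 was the highest control. Without it the log2 fold change of Stx1a was 0.45 rather than 0.20, and without nicotine rat 2, the highest library, it was -0.01. The gene was called in neither setting. Stx2 had an estimate of 0.15, and Stx11, which is known from cytotoxic lymphocytes and had a mean level of 0.464 CPM, had one of 0.27 with an interval from -0.96 to 1.51.

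The other SNAP-25 family members and vesicle SNAREs were more uneven between libraries. Snap23, the widely expressed relative of Snap25, was at 90.2, 58.7 and 78.3 CPM in the nicotine rats and at 107, 94.4 and 76.3 CPM in the control rats. This gave a log2 fold change of -0.29, with an interval from -0.73 to 0.15. Nicotine rat 2 was the lowest library, and without it the value was -0.14. The same library was lowest for Snap47, Vamp4, Vamp5 and Vamp8. Vamp8, a vesicle SNARE of granules and endosomes, was at 182, 121 and 176 CPM against 186, 166 and 164 CPM. Its log2 fold change was -0.11, and 0.05 without nicotine rat 2. Vamp4, found in the trans-Golgi network, was at 86, 59.1 and 73.8 CPM against 92, 84.5 and 83.7 CPM, with a log2 fold change of -0.25. Snap47 was at 35.2, 24.2 and 29.8 CPM against 37.5, 34.5 and 33.9 CPM, also at -0.25. In both genes nicotine rat 1 lay within the control range and the other two nicotine rats lay below it. Of the 7 vesicle SNAREs, 6 had an estimate below 0 and Vamp2 alone had one above 0 (median -0.09). With library totals alone 2 were above 0, and without nicotine rat 2 there were 4 and the median was 0.02. The levels of the others ranged from 3.73 to 109.6 CPM. Vamp4 and Snap47 were singled out after their values were seen.

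Syntaxins of the endosome, Golgi and endoplasmic reticulum, which serve membrane traffic inside the cell, lay close to equal in the groups. For all 8 of them the 95% interval of the fold change stayed within 1.5-fold. Their estimates ran from -0.23 to 0.11, with a median of -0.02 (0.03 with library totals alone). Stx7, of late endosomes, was at 125, 117 and 113 CPM against 154, 126 and 111 CPM. Stx12, of recycling endosomes, was at 83.6, 81.9 and 77.2 CPM against 104, 80.8 and 99.5 CPM. In both genes 1 control library lay below a nicotine library and the groups overlapped.

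**Figure D2:**
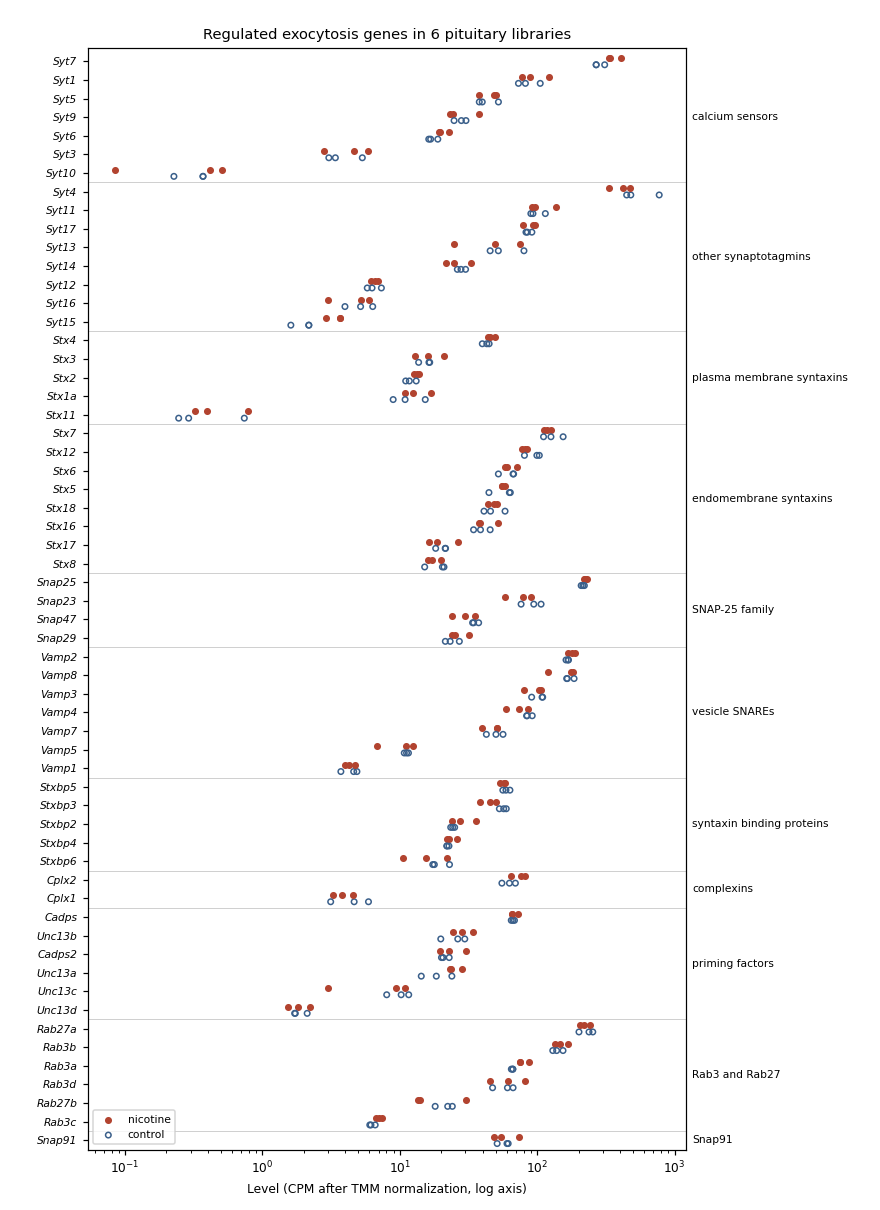
Level of 59 of the 61 members tested in each library, in CPM on a log axis, with filled red points for nicotine and open blue points for control rats, grouped by role. The groups overlap for 53 of the members drawn, and the points of Snap25 lie closest together.

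Synaptotagmins gave both ends of the range. The 7 tested members of the calcium-binding group, the sensors that couple calcium to fusion, all had an estimate above 0 (median 0.15), and none was called. Without nicotine rat 2, 3 of the 7 were above 0 and the median was -0.07. Syt7, a high-affinity sensor of hormone granules and lysosomes, was at 339, 407 and 333 CPM in the nicotine rats and at 269, 309.8 and 268 CPM in the control rats. Every nicotine library lay above every control library. The log2 fold change was 0.35 ± 0.17 (SE), with an interval from -0.03 to 0.73 and an edgeR adjusted p of 0.839, and it was 0.24 without nicotine rat 2. Syt1, the fast sensor of synaptic vesicles and granules, was at 77.4, 122 and 88.7 CPM against 82.1, 73 and 105 CPM. The spread of both groups covered the difference, and the log2 fold change of 0.15 became -0.07 without nicotine rat 2. Syt6 was at 19.3, 19.5 and 22.7 CPM against 18.9, 16.8 and 16.2 CPM, a gap between the groups smaller than the range within either. The other sensors tested, Syt3, Syt5, Syt9 and Syt10, had estimates from 0.04 to 0.18 and overlapping groups, with Syt10 at no more than 0.51 CPM in any library.

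Among the synaptotagmins outside that group, 4 of 8 had an estimate above 0, with a median of -0.03 (0.02 with library totals alone). Syt15 was at 3.67, 3.67 and 2.89 CPM in the nicotine rats (mean 3.41 ± 0.449, SD, n = 3) and at 2.18, 2.17 and 1.61 CPM in the control rats (mean 1.99 ± 0.327, SD, n = 3). Every nicotine rat lay above every control rat, and the gap exceeded the standard deviation of either group. The log2 fold change was 0.78 ± 0.27 (SE), with a 95% interval from 0.18 to 1.37. The unadjusted model p was 0.0152 and the edgeR adjusted p 0.807. The exact two-sided permutation test gave p = 0.1, the smallest value that 3 against 3 rats allow. Leaving out any single library gave a value between 0.65 and 0.88. Syt15 is a member whose calcium binding is not established, and its counts were low, from 59 to 338 in a library.

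Syt4, a synaptotagmin of maturing secretory granules, showed the lowest estimate. It was at 422, 475 and 333 CPM in the nicotine rats and 480, 448 and 772 CPM in the control rats. Control rat 3 was far above the other 5 libraries, and the rest of the values overlapped. That is a log2 fold change of -0.47, with an interval from -1.004 to 0.07, and -0.18 without control rat 3. It was -0.60 without nicotine rat 2 and -0.61 without control rat 2, in both settings with an unadjusted p under 0.05 and no call. Syt13 was at 49.1, 74.7 and 24.9 CPM against 52.1, 45.5 and 80.1 CPM, so that the nicotine group alone spanned nearly the whole range. Syt13 and Syt4 shared control rat 3 as their highest library and nicotine rat 3 as their lowest. Syt11 was at 96.2, 137 and 91.1 CPM against 93.2, 89.9 and 115 CPM, with an estimate of 0.13 that became -0.09 without nicotine rat 2. Syt12, Syt14, Syt16 and Syt17 had overlapping groups and estimates from -0.13 to 0.05.

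Of the 6 syntaxin binding proteins tested, 3 had an estimate above 0 and 3 below. Stxbp3 (Munc18c), which binds Stx4, was the 1 member with every nicotine library below every control library. It was at 50.4, 38.1 and 45.7 CPM in the nicotine rats and at 57, 53 and 59.5 CPM in the control rats. The log2 fold change was -0.34 ± 0.16 (SE), with an interval from -0.70 to 0.02 and an edgeR adjusted p of 0.839. Leaving out nicotine rat 2, the lowest library, gave -0.24. Stxbp5 (tomosyn), an inhibitor that occupies the syntaxin and Snap25 pair, was at 53.7, 57.5 and 58.8 CPM against 59.2, 56.2 and 63.3 CPM. Estimates for Stxbp2, Stxbp4 and Stxbp6 ran from -0.27 to 0.26, and nicotine rat 2 was the highest library for Stxbp2 and Stxbp4.

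Rab3 and Rab27 GTPases sit on the vesicle and tether it. Rab27a, of dense-core granules, was at 219, 244 and 204 CPM against 238, 201 and 254 CPM, with a log2 fold change of -0.06. Rab3b, an isoform known from the anterior pituitary, was at 135, 166 and 146 CPM against 138, 129.8 and 154 CPM, with 0.08. Both pairs of groups overlapped across most of their range. Rab3a, the main neuronal isoform, was at 75, 87.3 and 74.3 CPM against 64.8, 66.5 and 66.4 CPM, so the control rats lay close together and every nicotine rat lay higher. Its log2 fold change was 0.26 ± 0.15 (SE), with an interval from -0.07 to 0.59. Rab3c was at 7.04, 6.72 and 7.42 CPM against 6.17, 6.62 and 6.05 CPM, with a log2 fold change of 0.17. Rab27b was the most uneven of the family, at 14, 30.3 and 13.7 CPM against 24.1, 22.3 and 18.1 CPM. Nicotine rat 2 was the highest and the other nicotine rats were the lowest libraries. Its log2 fold change was -0.15, and without nicotine rat 2 it was -0.65 with an unadjusted p under 0.05 that did not survive adjustment.

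**Figure D3:**
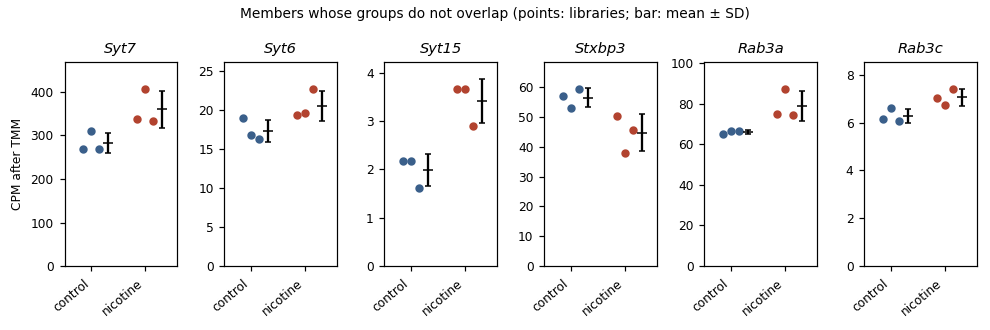
Levels in CPM, from 0, of the 6 members whose groups did not overlap, with 1 point per rat and the mean ± SD of 3 rats beside it. Stxbp3 is lower in the nicotine rats, and the other 5 are higher.

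Non-overlap of the groups is a description of these 6 rats. It held for 6 of the 61 members, or 9.84%, and for 11.3% of all genes tested. The nicotine rats were higher for 5 members (Syt6, Syt7, Syt15, Rab3a and Rab3c), where 6.12% of all genes were higher, and lower for Stxbp3, where 5.14% of all genes were lower. The share of the members was thus near that of all genes. The smallest p of the exact permutation test, 0.1, applies to each of the 6. Syt6, Rab3a, Rab3c and Stxbp3 were chosen for description because of this separation.

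Priming factors showed both directions. Cadps (CAPS1), which primes dense-core granules, was at 65.2, 73 and 65.3 CPM in the nicotine rats and at 68.3, 66.5 and 64.8 CPM in the control rats. With a log2 fold change of 0.03, its interval ran from -0.29 to 0.35. Unc13b was at 28.2, 24.4 and 34.1 CPM against 19.9, 29.7 and 26.4 CPM, with overlapping groups. Unc13a, the main neuronal Munc13, was at 23, 23.4 and 28.3 CPM against 14.3, 18.4 and 23.9 CPM. Only the highest control lay within the nicotine range. The log2 fold change of Unc13a was 0.40 ± 0.20 (SE), with an interval from -0.05 to 0.84. It was 0.60 without control rat 3, with an unadjusted p under 0.05, and 0.24 without control rat 1. Unc13c was at 9.31, 3 and 10.9 CPM against 10.2, 11.6 and 8.03 CPM. Nicotine rat 2 alone was low, the within-group standard deviation of log2(CPM + 0.5), 0.682, was the largest of all members, and the log2 fold change of -0.37 became 0.01 without that library. Unc13a, Unc13c, Syt13 and Rab27b were also picked after their values were seen.

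Complexins were represented by 2 genes. Cplx2 was at 75.6, 64.2 and 81.8 CPM against 55.4, 62.8 and 69.4 CPM, with a log2 fold change of 0.24 and an interval from -0.12 to 0.61. Cplx1 was at 3.27, 3.8 and 4.59 CPM against 4.65, 3.14 and 5.92 CPM, with -0.23, and 0.01 without control rat 3. The clathrin assembly gene Snap91 (AP180), which the symbol rule takes in although it encodes an endocytosis protein and no SNARE, was at 54.2, 73.7 and 48.4 CPM against 61.5, 51.1 and 60.3 CPM. Its log2 fold change was 0.03. All 3 genes had overlapping groups.

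The 5 members that were not tested by edgeR were near the limit of detection. Syt2, a sensor of fast synapses, had 2 and 6 counts in nicotine rats 1 and 2 and 0 in the other 4 libraries. Syt8 had 1 count in all. Cplx3 and Cplx4, the complexins of the retina, had 1 to 46 and 0 to 4 counts in a library, and the 46 counts of Cplx3 came from nicotine rat 2. Stx19 had between 4 and 15 counts. These numbers give no comparison between the groups, and a difference was not detectable at this depth.

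Single libraries stood out in these genes. Nicotine rat 2, the library with the most deposited counts, was the highest for 24 of the 61 members, or 39.3%, against 26.9% of all genes. It was the lowest for 9, or 14.8%, against 26.8%. Among the 24 were Syt1, Syt7, Vamp2, Rab3a and Rab3b. Among the 9 were Snap23, Snap47, Vamp4, Vamp5, Vamp8 and Stxbp3. Control rat 2 was highest for 2 members, or 3.28%, against 8.94% of all genes. The share of all counts taken by the members was highest in nicotine rat 2, at 0.445%, and next in control rat 3, at 0.431%.

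**Figure D4:**
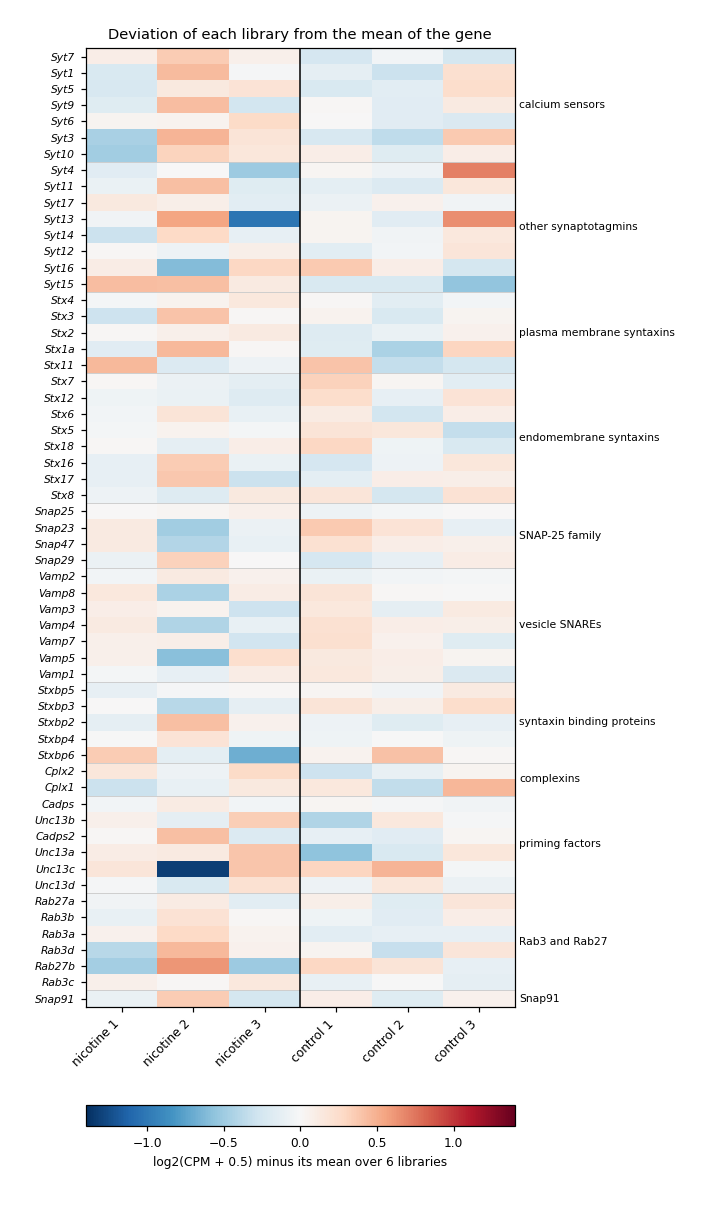
Deviation of log2(CPM + 0.5) in each library from its mean over the 6 libraries, for 59 of the 61 members tested, in red above and blue below the mean. The column of nicotine rat 2 holds more strong colours than any other, and Syt4 and Syt13 stand out in control rat 3.

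Other genes of the same pathway were taken from a list of 70 names that includes the SNARE recycling factors, the exocyst, active zone scaffolds, synaptic vesicle proteins and Rab effectors. Of these, 69 were tested and 0 were called by edgeR or by DESeq2. At an unadjusted p under 0.05 there were 2, or 2.9%, against 5.85% of all genes, both higher in the nicotine rats. Nsf, the ATPase that takes used SNARE bundles apart, was at 67.8, 105 and 57.05 CPM against 48.2, 49.5 and 52.8 CPM. All 3 nicotine rats lay above the controls, and nicotine rat 2 lay far above the others. The log2 fold change of Nsf was 0.61 ± 0.22 (SE), with an edgeR adjusted p of 0.808, and 0.31 without nicotine rat 2. Ppfia1 (liprin-alpha-1), a scaffold of release and adhesion sites, was at 35.4, 35.5 and 38.4 CPM against 22, 26.4 and 32.4 CPM. Its log2 fold change was 0.43 ± 0.18 (SE), with an edgeR adjusted p of 0.839. Estimates were above 0 for 50 of the 69 genes, with a median of 0.15, and for 39 of the 69 without nicotine rat 2, with a median of 0.02. The groups did not overlap for 10 of the 69, or 14.5%, all of them higher in the nicotine rats, where 6.12% of all genes were. Without nicotine rat 2 there were 14 higher, or 20.3%, against 11.8% of all genes, and 6 lower.

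Markers of other cells in the gland also differed between the libraries. The lists were chosen with earlier results of these data known, so the counts of markers given are description. Of all genes tested, 5.85% had an unadjusted p under 0.05 by edgeR. DESeq2 called 0.347% of the genes to which it gave an adjusted p. The 10 markers of neurons and axons summed to 168 to 412 CPM in the nicotine rats and 108 to 159 CPM in the control rats, without overlap. Avp, Oxt, Nefl and Nefm had an unadjusted p under 0.05 and were higher, and the other 6 did not pass. Of the 10, Avp and Oxt alone separated the groups, and Nefl in nicotine rat 3, at 41.7 CPM, lay below every control rat. The estimates of Rbfox3, Slc17a6, Slc17a7 and Nefh were above 0. Those of Gad1 (-0.58) and Camk2a (-0.41) were below 0. Nicotine rat 2 had the highest sum, 412 CPM, and was also the library in which Syt1, Syt7 and Nsf peaked. It was the highest library for 26.9% of all genes. Of the endocrine list, Gh1, Cga, Fshb and Lhb also peaked there, and Prl, Pomc, Tshb and Pou1f1 did not. The 6 markers of meninges and fibroblasts summed to 218 to 468 CPM against 576 to 797 CPM, with 4 lower at that level and the lowest sum again in nicotine rat 2. The 7 leukocyte markers summed to 60.8 to 93.1 CPM against 79.04 to 179.5 CPM, with 4 lower. Of those, S100a8 and S100a9 were high in control rats 1 and 3 (35.3 and 26.6 CPM for S100a8, 63.3 and 44.9 CPM for S100a9), while control rat 2, at 1.02 and 3.92 CPM, lay below every nicotine rat. The 6 endothelial markers summed to 169 to 268.5 CPM against 130.5 to 172.5 CPM, with 4 higher. The 7 vessel wall markers summed to 51.1 to 209 CPM against 43.2 to 60.7 CPM, with 3 higher, and Tagln alone gave 137.9 of the 209 CPM in nicotine rat 3. The 4 red blood cell genes summed to 3071 to 9690 CPM against 7965 to 16200 CPM, with 3 lower, and reads of the near-identical copies Hba-a1 and Hba-a2 may be split between them. The 5 markers of folliculostellate cells and pituicytes summed to 298 to 452 CPM against 306 to 355 CPM, with none below that p. Of the endocrine list, Lhb alone passed it, higher in the nicotine rats and with its maximum, 819.9 CPM, in nicotine rat 2. By DESeq2, 2 markers were called, Acta2 of the vessel wall list (log2 fold change 2.09, adjusted p = 0.00151) and Cldn11 of the meningeal list (-1.31, adjusted p = 0.00204), and by edgeR none was. No marker was at 0 in all libraries. The part of these lists in the values of the release genes was not tested.

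Sequence windows of 250 bases before the transcription start were examined for what the genes share apart from their symbols, and the 50 bases after the start that the sequence table also holds were left out. RefSeq windows on the GRCr8 assembly were matched by symbol for 54 of the 66 members and were oriented 5′ to 3′ along the gene. The GC box GGGCGG, a motif of Sp1-type factors, was counted on both strands (as GGGCGG or CCGCCC). It was in a window of 34 of the 54, or 63%, against 33.5% of all genes with a window. All 34 were among the 49 tested members with a window, of which they were 69.4%, against 55.9% of the genes tested in the pituitary, and none of the 5 members too low to test had the motif. The CRE core TGACG, also counted on both strands (as TGACG or CGTCA), was in 28.6% of the tested members and 27.1% of the genes tested. The TATA box TATAAA, or TTTATA on the other strand, was in 6.12% against 7.98%. A CRE core and a GC box can share 1 end letter and no more. The median number of CpG dinucleotides was 16 in the windows of the tested members and 15 over the genes tested, against 6 over all genes. The median share of G and C was 62.8% for the tested members and 59.6% for the genes tested. The GC box shares were not adjusted for it. A match is a description of letters and not of a bound site. The CpG number of a member ran from 0 to 43. The windows shown are those of the fusion SNARE Vamp2, which varied little between rats, of its syntaxin partner Stx1a and of Syt15, the member with the largest estimate. Capitals mark the GC box and the CRE core. The Vamp2 window lies at chr10:54292539-54292788 on the + strand, that of Stx1a at chr12:27306472-27306721 on the - strand and that of Syt15 at chr16:9538490-9538739 on the + strand.
Vamp2: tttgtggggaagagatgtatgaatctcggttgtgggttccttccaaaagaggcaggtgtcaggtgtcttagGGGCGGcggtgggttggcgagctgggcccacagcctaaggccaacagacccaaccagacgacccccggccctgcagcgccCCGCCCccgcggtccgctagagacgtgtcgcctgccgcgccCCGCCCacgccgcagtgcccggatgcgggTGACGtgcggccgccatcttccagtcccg
Stx1a: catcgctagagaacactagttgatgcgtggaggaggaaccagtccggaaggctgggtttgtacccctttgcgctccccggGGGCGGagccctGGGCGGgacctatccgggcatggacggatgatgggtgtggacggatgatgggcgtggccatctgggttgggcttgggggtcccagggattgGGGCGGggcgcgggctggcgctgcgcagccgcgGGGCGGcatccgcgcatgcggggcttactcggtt
Syt15: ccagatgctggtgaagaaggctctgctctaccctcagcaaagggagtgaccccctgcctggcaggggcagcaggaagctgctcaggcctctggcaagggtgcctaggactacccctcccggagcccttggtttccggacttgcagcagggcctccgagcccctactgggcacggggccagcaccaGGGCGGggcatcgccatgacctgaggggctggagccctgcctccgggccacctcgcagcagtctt
The Vamp2 window held 3 GC boxes, 1 CRE core and 24 CpG dinucleotides. The Stx1a window held 4 GC boxes, no CRE core and 23 CpG dinucleotides. The Syt15 window held 1 GC box and 8 CpG dinucleotides, fewer than either.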

How the data were processed

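Counts per gene symbol in 6 rat pituitary libraries were used as deposited by the authors. Per the labels and the study's methods, stranded libraries were sequenced from both ends, and the submitters' processing notes name HISAT2 2.1.0, featureCounts and the rn7 build, with DESeq2 2.11.40.7 for their own comparison. The strand setting of the counting, the handling of reads with several matches and whether reads or pairs were counted are not given in the sources used here. Columns of other samples numbered 0.

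Calculations used R 4.3.3, edgeR 4.0.16, limma 3.58.1 and DESeq2 1.42.0. Genes that passed filterByExpr were fitted together with edgeR's quasi-likelihood test (TMM factors, group as the only term, all 6 libraries), with Benjamini-Hochberg adjustment over all genes tested. A gene was called with an adjusted p below 0.1 and a change above 1.5-fold, as in the study's methods. The common biological coefficient of variation was 23.6%. CPM are counts per 1000000 counts of the TMM-scaled library size, fold changes come from the fit, and SD are over 3 rats. Depth was 28318383 to 85977002 counts per library, and counting error was small beside the spread between rats except for the lowest genes. Within a group, libraries differed beyond sampling noise. The model fits were tested on simulated counts with known changes.

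The members, the roles, the pathway list and the marker lists were chosen with earlier results of these data known. The genes named are the 2 most abundant of each role, members with an unadjusted p under 0.05 or a fold change over 1.5 without overlap, and pathway genes with an unadjusted p under 0.05. Values of 2 members are not reported here, although counts over the members include them. Every other gene named was chosen after its values were seen. Alternatives were DESeq2, RLE factors, library totals alone, the replicate number as a block, limma voom with quality weights, no filter, a minimum of 10 counts in each library, counts thinned to the total of the smallest library, removal of genes above 1% of the counts, an adjusted p below 0.05, no fold threshold, and each of the libraries removed in turn. Promoter windows were not matched for 12 members, among them Snap25, Snap91, Syt10, Syt12, Syt13, Syt17, Syt5, Syt7, Vamp3 and Vamp7.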

Additional observations from a re-analysis of the deposited data

How the results depend on the processing

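No member was called under any of the alternatives. Over all genes the count of calls, 0 by edgeR (1011 at an unadjusted p under 0.05), was 62 with DESeq2, 30 without the filter, 2 with the replicate block, 1 each with library totals alone, at least 10 counts in every library, limma voom and thinning, and 0 to 4 with a library left out (4 without control rat 2). The count of members with an unadjusted p under 0.05 was 4 with limma voom (Syt15, Unc13a, Cplx2 and Rab27b), 2 with the replicate block (Syt15 and Unc13a) and 1 to 4 with a library left out, the 4 without nicotine rat 2 being Syt15, Syt4, Rab27b and Syt13. It was 3 without nicotine rat 1, 2 without control rat 2 (Syt15 and Syt4), and 2 without control rat 3, where Syt15 was not among them and Unc13a was. The median log2 fold change of the members was 0.10 with library totals alone, which also moved the median of all genes to 0.06, and -0.01 to 0.08 with a library left out. The labels give no pairing beyond the number, and deviations of same-numbered rats correlated at 0.02, -0.25 and -0.09. In 510 refits of 34 named genes, 490 kept the direction and 20 turned the sign, and none of these genes was called in any of them. The other thresholds (an adjusted p below 0.05, any fold change) reuse the same fit and are not counted. Cadps was -0.0109 and Snap91 -0.0765 with limma voom, and Snap91 was -0.0122 after thinning. With a library left out, the log2 fold change spanned -0.036 to 0.0576 for Cadps, -0.17 to 0.15 for Snap91, -0.65 to 0.044 for Rab27b, -0.0114 to 0.16 for Rab3b, -0.10 to 0.27 for Stx3, -0.0724 to 0.31 for Syt1, -0.0931 to 0.25 for Syt11, -0.21 to 0.0495 for Vamp8, -0.71 to 0.0135 for Unc13c, -0.15 to 0.0193 for Rab27a, -0.69 to 0.0649 for Syt13, -0.44 to 0.0086 for Cplx1 and -0.0127 to 0.45 for Stx1a. The cause was not tested. Depth and 3 rats a group limit what can be seen in Syt10 and Stx11, whose intervals are the widest of the members.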
